A study of Mus musculus with 6 samples.

Results

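The genes described here build and run the mitotic spindle. The list holds 44 genes, among them kinesin motors, kinetochore and checkpoint proteins, condensin subunits and the organisers of cytokinesis. Each gene was read from the Affymetrix Mouse Genome array through the probe sets that carry its symbol alone, and where a gene had several, the brightest across all 6 arrays stood for it. On this basis 43 of the 44 genes were measured, out of 13817 genes with a probe set of their own. Kif15, a spindle kinesin, was not listed in the annotation used here.

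RNA came from the tibial plateau of male C57Bl/6J mice aged 6 weeks, with 1 joint of 1 mouse on each array. The dissected piece held articular cartilage, subchondral bone with its marrow and the upper growth plate, so every value is an average over these tissues. The wild-type mice are those with the titles 6-1, 8-1 and 9-1. The Frzb-/- mice lack frizzled-related protein, a secreted WNT antagonist, from the germ line and in every tissue, and were backcrossed into C57Bl/6J. In all, 3 arrays carry the label Frzb -/-, with the titles 14, 17 and 6. The study left 1 presumed Frzb-/- mouse out after it clustered with the wild-type mice and was genotyped again as heterozygous. Its text does not give the title of that mouse, but its published log2 differences do. Those for Frzb (-3.606), Mmp8 (-3.531) and Epb42 (-3.245) equal the differences found here with titles 14 and 17. With all 3 labelled mice the differences were -3.534, -2.393 and -2.026, so the mouse left out was title 6. Here the mice titled 14 and 17 were compared with the 3 wild-type mice, and title 6 is given apart with its own values. That choice follows the study, which noticed the mouse by its whole profile before genotyping it again. A profile is the same kind of measure as the genes tested, so the values with all 3 labelled mice are given as well.

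During mitosis, motor proteins of the kinesin family and microtubule-bundling proteins build a bipolar spindle. Its fibres hold each chromosome at the kinetochore, a protein plate on the centromere, and the spindle assembly checkpoint delays anaphase until every kinetochore is attached. The anaphase-promoting complex then marks securin and cyclin B for destruction, separase opens the cohesin rings between sister chromatids, and a contractile ring divides the cell. Most of these genes are transcribed in late S phase, G2 and mitosis, so their RNA is abundant where cells divide. In a young long bone these places are the marrow, with its erythroid, myeloid and lymphoid precursors, and the proliferative zone of the growth plate.

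All 43 measured genes had lower log2 values in both Frzb-/- mice of the comparison than in any wild-type mouse. A gene was called lower when its adjusted p value in the limma fit across all 30618 probe sets was under 0.01 and its log2 difference was past 1, the thresholds of the study. By this rule 40 of the 43 genes fell and 0 rose, against 6.02% of all genes called lower and 3.03% called higher. Both Frzb-/- mice lay below every wild-type mouse in 28.1% of all genes. The median log2 difference over the 43 genes was -1.80, against 0.04 over all genes, and the median level in the Frzb-/- mice was 28.8% of the wild-type level. The falls ran from 17.4% of the wild-type level for Ube2c to 72.6% for Pttg1. Of the 43 genes, 10 differed by more than -2 on the log2 scale, 31 lay between -1 and -2, and 2 lay above -1. In RNA from a whole piece of tissue, fewer dividing cells and less of each RNA per cell cannot be told apart. Markers of erythroid cells and of neutrophil precursors were lower in the same mice, with median differences of -2.74 and -2.28, and their part in the fall was not tested. The study drew 7 of the 43 genes into a cell cycle table from these arrays, so their direction is no independent evidence. All 7 fell, as did 33 of the 36 others. Those 36 come from the same arrays and were chosen with earlier results known, so they are no independent evidence either.

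The count depended on single mice more than the size of the difference did. Without the mouse titled 17, 9 of the 43 genes were called lower, against 1.40% of all genes, and the median difference was -1.46. Without wild-type mouse 8-1 the count was 16, against 2.70% of all genes, although the median difference stayed at -1.80. Leaving out title 14 gave 41 calls, against 5.55% of all genes, and a median of -2.06. Where a Frzb-/- mouse was left out, the other was a lone array assumed to vary like the wild-type mice. A fit with all 3 labelled Frzb-/- mice adds title 6, so the group then holds the mouse genotyped again as heterozygous. In that fit 0 genes were called and the median difference was -1.15. Of the 43, 3 had an unadjusted limma p under 0.05 and lower values, against 4.81% of all genes. Without limma's sharing of variance between probe sets, 0 of the 43 were called and all 43 had lower values with an unadjusted p under 0.05, against 18.5% of all genes.

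**Figure D1:**
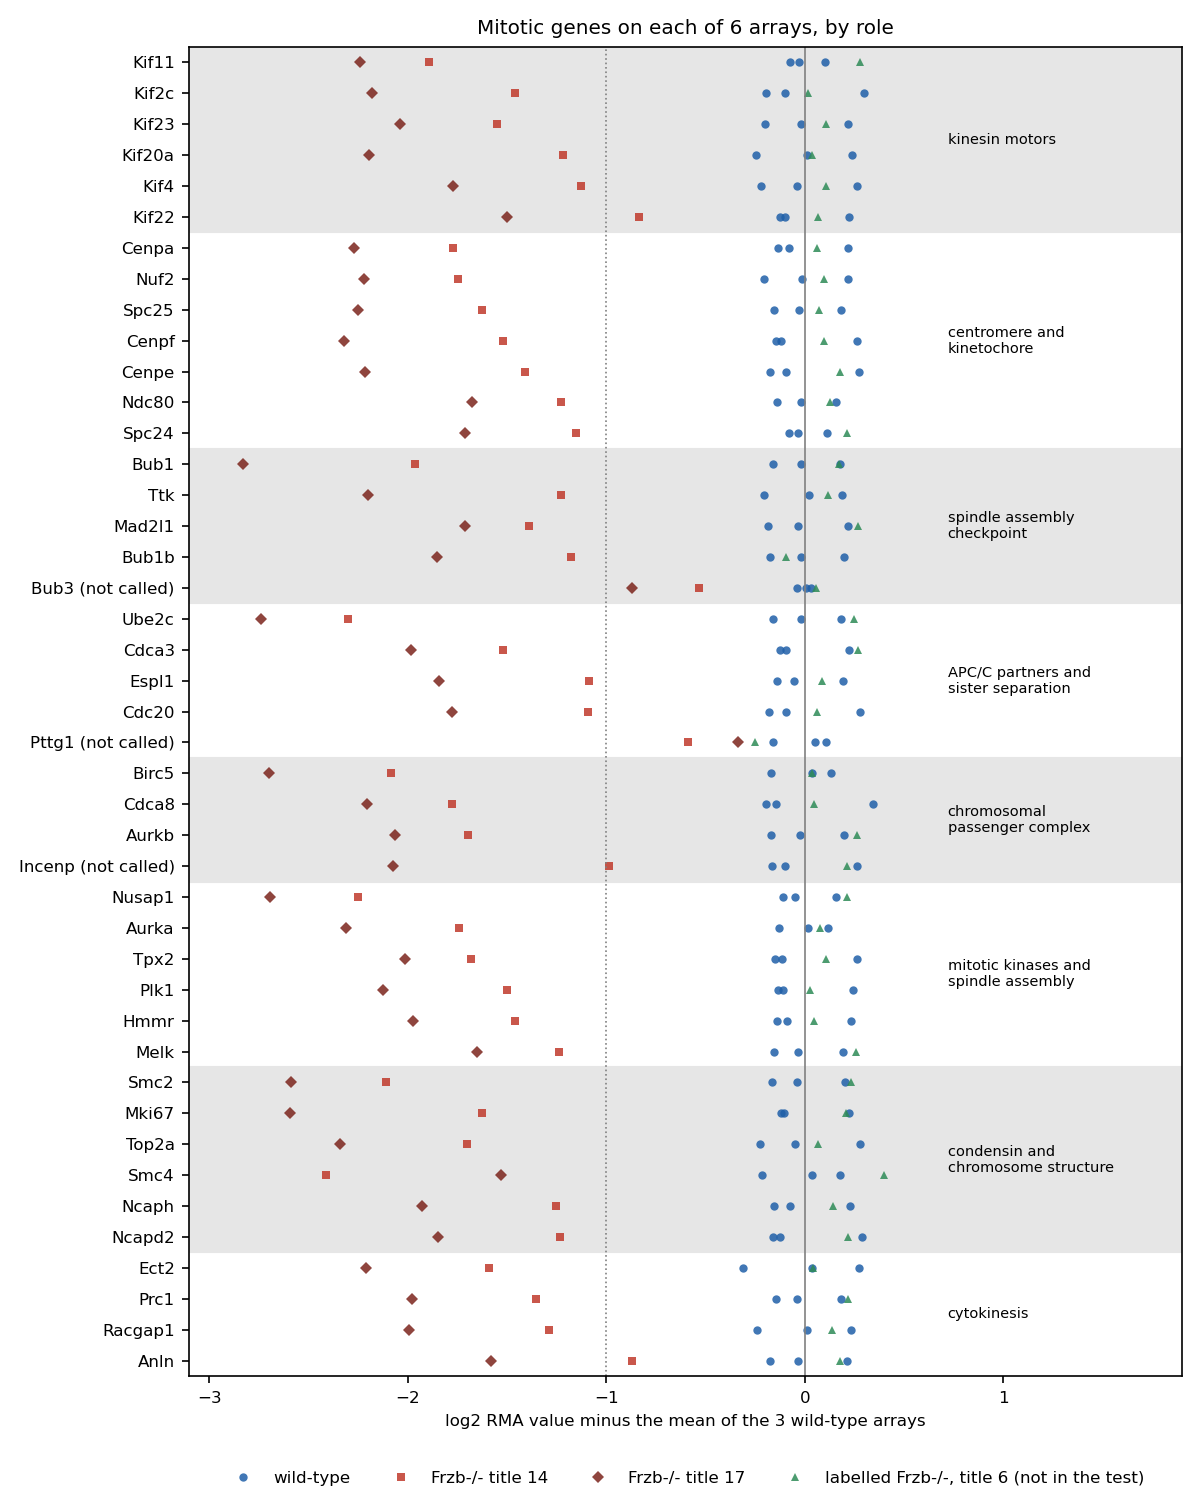
Each row is 1 gene and each symbol 1 array, placed by its log2 RMA value minus the mean of the 3 wild-type arrays, with the genes grouped by role and the dotted line at a difference of -1. The symbols of titles 14 and 17 lie to the left of all wild-type symbols in all 43 rows, while title 6 lies above the wild-type mean in 41.

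Frzb, the targeted gene, checks the labels. Its brightest probe set read 10.02, 10.79 and 10.16 in wild-type mice against 7.02 and 6.42 in titles 14 and 17, a log2 difference of -3.61 (SE 0.27, limma adjusted p = 0.000994). Title 6 read 6.93, between titles 14 and 17, although the study genotyped the mouse it left out as heterozygous. Why its Frzb level and that genotype differ was not tested. The rest of the profile of title 6 lay nearer to the wild-type mice. Across all probe sets it correlated at 0.983 to 0.991 with the wild-type arrays and at 0.940 to 0.957 with titles 14 and 17, which correlated at 0.988 with each other. The medians of the 6 arrays lay between 7.32 and 7.45.

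Promoter sequences were available for 38 of the 44 genes, in 41 RefSeq windows that run from 250 bases before the transcription start to 50 bases after it (build GRCm38.p6). Many genes of late cell cycle stages carry a cell cycle genes homology region, known as CHR, to which the MuvB complex binds, and a CCAAT box, the site of NF-Y. The CHR core was searched as TTTGAA or its complement TTCAAA, and the CCAAT box as CCAAT or ATTGG, with overlaps allowed. A CHR core stood in the window of 29 of the 38 genes (76.3%), against 14.6% of the genes on the array and 20.2% of all genes with a window. Counting only from 100 bases before to 50 bases after the start, the share was 71.1%, against 5.89% of the genes on the array. A CCAAT box stood in 27 of the 38 genes (71.1%), against 42.2% of the genes on the array. The variant core TTTAAA was found in 8 of the 38 (21.1%), against 11.8%. The shares were also high in 51 other mitotic genes with a window, from a list described further below. Of these, 49.0% held a CHR core, 41.2% when counted from -100 to +50, and 64.7% a CCAAT box. Among genes called lower outside both mitotic lists, 19.3% held a CHR core. These shares describe letters in a window, not sites in use.

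The median falls of genes with and without each motif lay close together. The 28 measured genes with a CHR core had a median log2 difference of -1.77 and the 9 without one -1.81. For the CCAAT box the medians were -1.81 in the 27 genes with it and -1.57 in the 10 without it. Both motifs stood together in 25 genes, with a median of -1.80. Another 7 held neither, with a median of -1.59, namely Birc5, Mad2l1, Melk, Ncaph, Nuf2, Nusap1 and Pttg1. The variant core TTTAAA, which Birc5 holds, was not counted as a CHR core here, and other forms of the CHR were not searched. The stretches below run from 120 bases before to 30 bases after the start. They belong to the 5 genes with the largest falls and to Bub3 and Pttg1, with the smallest. They are written 5′ to 3′ along the gene, and capitals mark whole CHR cores and CCAAT boxes. Ube2c, with the largest fall, and Bub3, with one of the smallest, carry a CHR core and CCAAT boxes alike. Nusap1 and Birc5 fell almost as far as Ube2c and show neither. Bub3 has another RefSeq start downstream, which is not shown. The CHR cores of Smc2 lie outside its stretch or run past its end.
Ube2c (chr2:164769809-164769958, plus strand): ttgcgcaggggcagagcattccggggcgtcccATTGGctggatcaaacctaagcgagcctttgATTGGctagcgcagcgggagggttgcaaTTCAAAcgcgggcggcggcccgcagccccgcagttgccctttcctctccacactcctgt
Nusap1 (chr2:119618178-119618327, plus strand): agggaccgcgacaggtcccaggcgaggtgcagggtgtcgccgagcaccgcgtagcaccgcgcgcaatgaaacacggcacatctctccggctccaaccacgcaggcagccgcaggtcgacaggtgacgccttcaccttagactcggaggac
Bub1 (chr2:127831830-127831979, minus strand): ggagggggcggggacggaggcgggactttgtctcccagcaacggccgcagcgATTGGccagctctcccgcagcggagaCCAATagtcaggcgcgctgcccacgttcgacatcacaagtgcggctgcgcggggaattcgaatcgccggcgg
Birc5 (chr11:117849117-117849266, plus strand): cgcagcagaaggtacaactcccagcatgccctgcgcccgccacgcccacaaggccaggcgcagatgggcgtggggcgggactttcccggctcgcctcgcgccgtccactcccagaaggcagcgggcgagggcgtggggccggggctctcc
Smc2 (chr4:52439101-52439250, plus strand): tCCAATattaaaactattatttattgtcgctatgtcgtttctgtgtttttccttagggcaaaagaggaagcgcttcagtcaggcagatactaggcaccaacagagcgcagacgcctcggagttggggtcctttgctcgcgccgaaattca
Bub3 (chr7:131560250-131560399, plus strand): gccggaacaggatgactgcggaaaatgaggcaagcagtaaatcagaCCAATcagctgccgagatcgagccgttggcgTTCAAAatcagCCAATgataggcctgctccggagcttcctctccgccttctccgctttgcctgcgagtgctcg
Pttg1 (chr11:43425952-43426101, minus strand): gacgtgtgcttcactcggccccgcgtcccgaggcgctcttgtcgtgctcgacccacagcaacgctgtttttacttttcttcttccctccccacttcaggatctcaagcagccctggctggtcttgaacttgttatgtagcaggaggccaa

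**Figure D2:**
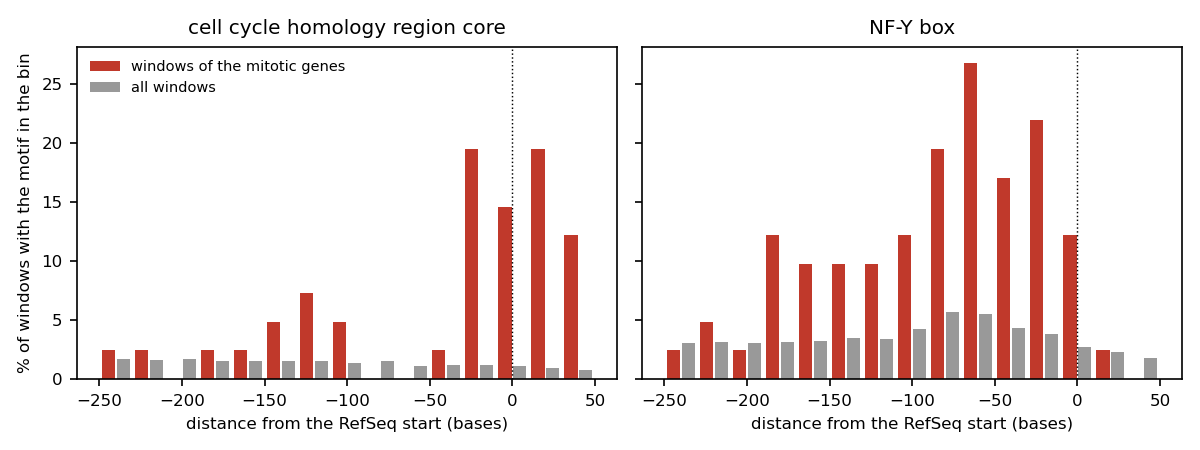
Bars give the percentage of promoter windows with the motif in each bin of 20 bases, against the distance from the RefSeq start, for the 41 windows of the mitotic genes (red) and all 32851 windows (grey). The CHR core of the mitotic genes lies mostly between 30 bases before and 50 bases after the start, with up to 19.5% of their windows in a bin, and the NF-Y box (CCAAT) reaches 26.8% in the bin centred at -60.

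All 6 measured kinesin motors fell, with a median log2 difference of -1.75. These motors slide spindle microtubules apart, move chromosomes or take microtubules down. Kif11, the motor that pushes the spindle poles apart, read 8.68, 8.72 and 8.85 in wild-type mice against 6.86 and 6.51 in titles 14 and 17, with 9.03 in title 6. Its log2 difference between titles 14 and 17 and the wild-type mice, the quantity given for every gene, was -2.07 (SE 0.15, limma adjusted p = 0.000966), the largest of the motors. Kif2c, which depolymerises microtubules at the centromere, read 8.60, 8.50 and 9.00 in wild-type mice against 7.24 and 6.52 in the Frzb-/- mice, with 8.72 in title 6. Its difference was -1.82 (SE 0.24, limma adjusted p = 0.00303). Kif22, a motor on chromosome arms, read 11.53, 11.55 and 11.87 against 10.81 and 10.15, with 11.71 in title 6. Its difference of -1.17 (SE 0.22, limma adjusted p = 0.00985) passed the threshold narrowly and was the smallest called among the 43 genes. Kif23 and Kif20a, which work at the central spindle, differed by -1.80 and -1.71, and the chromokinesin Kif4 by -1.45. Without title 17, which leaves title 14 as a lone array, the median of the 6 motors was -1.34.

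All 7 centromere and kinetochore genes fell, with a median of -1.92 and differences between -1.43 and -2.02. Cenpa, the histone H3 variant that marks the centromere, read 9.86, 9.91 and 10.21 in wild-type mice against 8.22 and 7.73 in the Frzb-/- mice, with 10.05 in title 6. Its difference was -2.02 (SE 0.19, limma adjusted p = 0.00120). The NDC80 complex, which grips the microtubule end, was measured through all 4 of its subunits. Nuf2 read 9.27, 9.46 and 9.69 against 7.72 and 7.25, with 9.57 in title 6. Its difference was -1.98 (SE 0.19, limma adjusted p = 0.00123). Spc25 differed by -1.94, Ndc80 by -1.45 and Spc24 by -1.43. Cenpf and Cenpe, large proteins of the outer kinetochore, differed by -1.92 and -1.81. Every kinetochore gene had at least 1.07 log2 units between its lowest wild-type mouse and its highest Frzb-/- mouse.

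Of the spindle assembly checkpoint, 4 of 5 genes fell and the group median was -1.55. Bub1, a checkpoint kinase at the kinetochore, read 8.66, 8.80 and 9.00 in the wild-type mice, 6.86 in title 14 and 5.99 in title 17, with 8.99 in title 6. Its difference of -2.40 (SE 0.25, limma adjusted p = 0.00152) was the third largest of the 43. Ttk, the kinase at the head of the checkpoint, read 7.93, 8.15 and 8.32 against 6.91 and 5.94, with 8.25 in title 6. Its difference was -1.71 (SE 0.28, limma adjusted p = 0.00605). Mad2l1 and Bub1b, both parts of the complex that holds Cdc20 inactive, differed by -1.55 and -1.52. Bub3 was the exception. This WD-repeat partner of Bub1 and Bub1b read 11.48, 11.53 and 11.55 in wild-type mice against 10.99 and 10.65 in the Frzb-/- mice, with 11.58 in title 6. Its difference was -0.70 (SE 0.14, limma adjusted p = 0.0120), which passed neither threshold. The wild-type values of Bub3 were the closest of any of the 43 genes, with an SD of 0.04, and none of its 5 probe sets was called.

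Among the partners of the anaphase-promoting complex and the genes of sister separation, 4 of 5 fell, and this group held both the largest and the smallest difference of the list. Ube2c, the ubiquitin-conjugating enzyme of the complex, read 11.77, 11.63 and 11.97 in wild-type mice against 9.48 and 9.05 in titles 14 and 17, with 12.04 in title 6. Its difference was -2.52 (SE 0.18, limma adjusted p = 0.000947), or 5.74-fold lower. Cdca3, a mitotic entry factor that is degraded in G1, read 9.89, 9.92 and 10.23 against 8.50 and 8.03, with 10.28 in title 6. Its difference was -1.75 (SE 0.18, limma adjusted p = 0.00152). Espl1, separase, differed by -1.47 and Cdc20, the activator of the complex, by -1.44. Pttg1, securin, which restrains separase, read 12.33, 12.06 and 12.27 in the wild-type mice, 11.63 in title 14 and 11.89 in title 17, with 11.97 in title 6. Its difference was -0.46 (SE 0.14, limma adjusted p = 0.0549), and the gap between the groups was 0.18, the narrowest of the list. Its other 2 probe sets were not called either.

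The chromosomal passenger complex, which corrects faulty attachments and later steers the cleavage furrow, had 3 of 4 genes called lower and a median of -1.94. Birc5, survivin, read 11.03, 10.82 and 11.12 in wild-type mice against 8.91 and 8.29 in the Frzb-/- mice, with 11.03 in title 6. Its difference was -2.39 (SE 0.20, limma adjusted p = 0.00105). Cdca8, borealin, read 10.43, 10.48 and 10.97 against 8.85 and 8.43, with 10.68 in title 6. Its difference was -1.99 (SE 0.21, limma adjusted p = 0.00153). Aurkb, the kinase of the complex, differed by -1.88. Incenp, its scaffold, read 11.13, 11.07 and 11.49 in the wild-type mice, 10.25 in title 14 and 9.16 in title 17, with 11.44 in title 6. Its difference of -1.53 was as large as that of called genes, but the value of title 17 minus that of title 14 was -1.09 and the fit did not call it (SE 0.31, limma adjusted p = 0.0132). A dimmer probe set of Incenp, at 9.50, 9.51 and 9.80 against 8.16 and 7.50, was called lower.

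The mitotic kinases and spindle assembly factors fell in 6 of 6 cases, with a median of -1.83. Nusap1, which bundles microtubules near chromosomes, read 10.12, 10.17 and 10.38 in wild-type mice against 7.97 and 7.53 in the Frzb-/- mice, with 10.44 in title 6. Its difference was -2.47 (SE 0.17), with the lowest limma adjusted p of the list, 0.000938. Aurka, the centrosome kinase, read 9.31, 9.17 and 9.41 against 7.56 and 6.99, with 9.37 in title 6. Its difference was -2.03 (SE 0.19, limma adjusted p = 0.00119). Tpx2, which activates Aurka on the spindle, differed by -1.85. Plk1, a kinase with tasks from centrosome maturation to cytokinesis, differed by -1.81, the hyaluronan receptor and spindle protein Hmmr by -1.72, and the kinase Melk by -1.44.

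Condensin and chromosome structure genes also fell in 6 of 6 cases, with the largest group median, -2.0. Smc2, the condensin ATPase subunit shared by both complexes, read 10.37, 10.50 and 10.74 in wild-type mice against 8.43 and 7.95 in the Frzb-/- mice, with 10.77 in title 6. Its difference was -2.35 (SE 0.18, limma adjusted p = 0.000999). Mki67, which coats mitotic chromosomes and is the common marker of dividing cells, read 12.74, 12.72 and 13.07 against 11.22 and 10.25, with 13.05 in title 6. Its difference was -2.11 (SE 0.28, limma adjusted p = 0.00287). Top2a, the topoisomerase that untangles sister DNA, differed by -2.02. Smc4, the partner of Smc2, differed by -1.97, and the condensin I subunits Ncaph and Ncapd2 differed by -1.59 and -1.54.

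All 4 cytokinesis genes fell, with a median of -1.65. Ect2, the exchange factor that switches on RhoA at the cleavage plane, read 8.51, 8.86 and 9.10 in wild-type mice against 7.23 and 6.61 in the Frzb-/- mice, with 8.87 in title 6. Its difference was -1.90 (SE 0.24, limma adjusted p = 0.00245). Prc1, which bundles the central spindle, read 9.87, 9.77 and 10.10 against 8.56 and 7.94, with 10.13 in title 6. Its difference was -1.67 (SE 0.21, limma adjusted p = 0.00234). Racgap1, the partner of Kif23 in centralspindlin, differed by -1.64. Anln, anillin of the contractile ring, differed by -1.22 with a limma adjusted p of 0.00952, close to the threshold. Without wild-type mouse 8-1, 0 of the 4 cytokinesis genes were called, against 2.70% of all genes, although their median was -1.69. Without title 17, again with title 14 as a lone array, the median of the 4 was -1.32.

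The role groups differed little from each other. Their medians ran from -1.47 for the anaphase-promoting complex group to -2.0 for condensin and chromosome structure, and the ranges of single genes overlapped between all groups. The genes that fell least, Pttg1 and Bub3, each sat in a group whose other members fell by 1.44 or more on the log2 scale.

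**Figure D3:**
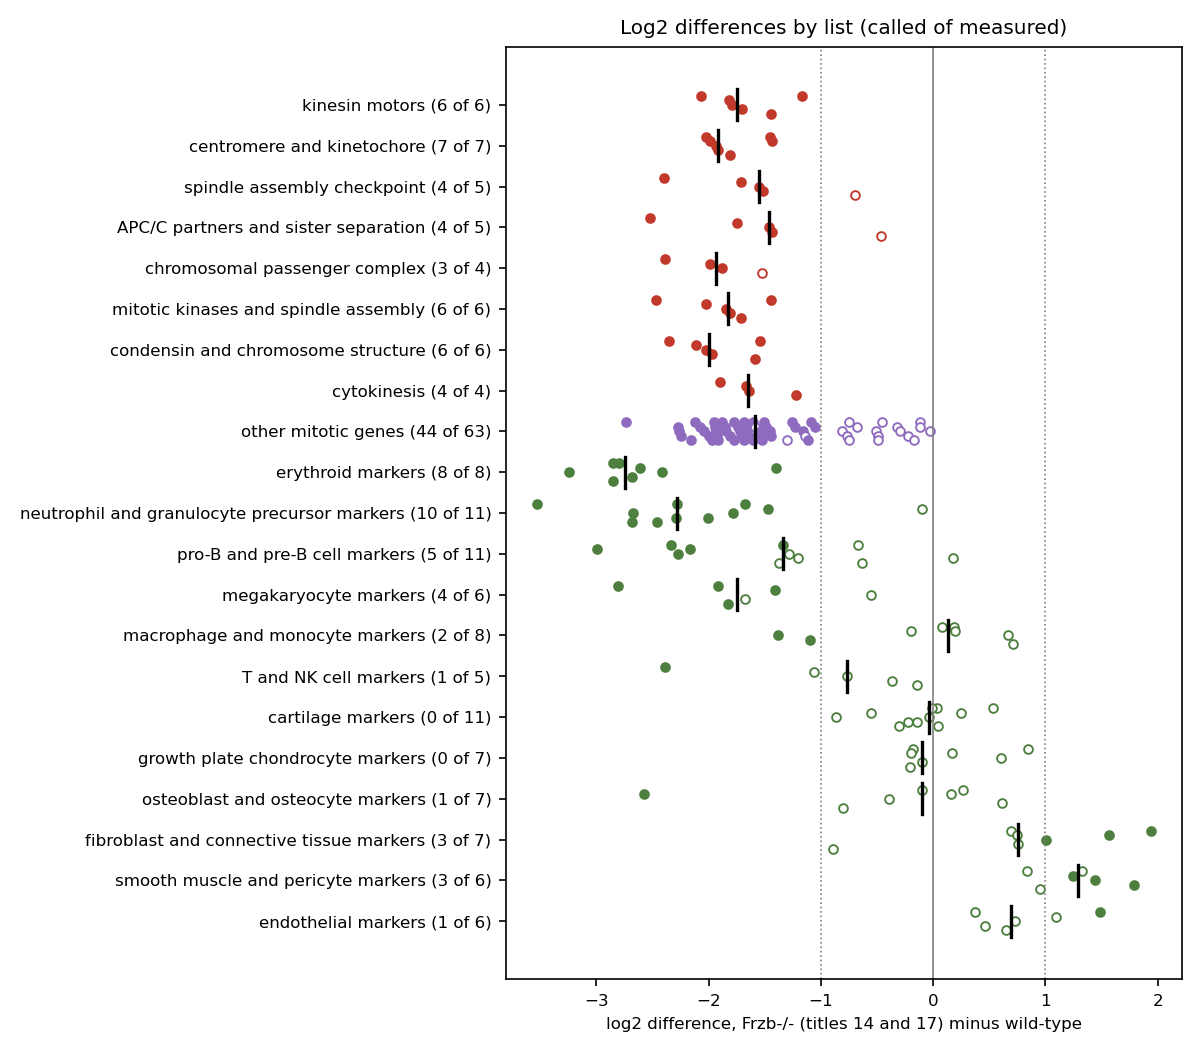
Each point is 1 gene at its log2 difference between Frzb-/- titles 14 and 17 and the 3 wild-type arrays, filled where called, with a black bar at the list's median and dotted lines at -1 and 1. The role groups (red) have medians between -1.47 and -2.0, the erythroid markers -2.74, and the cartilage markers -0.04.

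The 2 Frzb-/- mice did not fall equally. Title 17 read lower than title 14 in 41 of the 43 genes, and the median of title 17 minus title 14 was -0.62 on the log2 scale. The same order held in 88.0% of the 832 genes called lower and in 59.1% of all genes. The exceptions were Pttg1 and Smc4. Smc4 read 11.45, 11.84 and 11.70 in the wild-type mice, 9.25 in title 14 and 10.13 in title 17, with 12.06 in title 6, while another of its probe sets read 10.12 in title 14 and 9.54 in title 17, so its order depended on the probe set. The SD between titles 14 and 17 had a median of 0.44 over the 43 genes, against 0.13 over all genes.

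**Figure D4:**
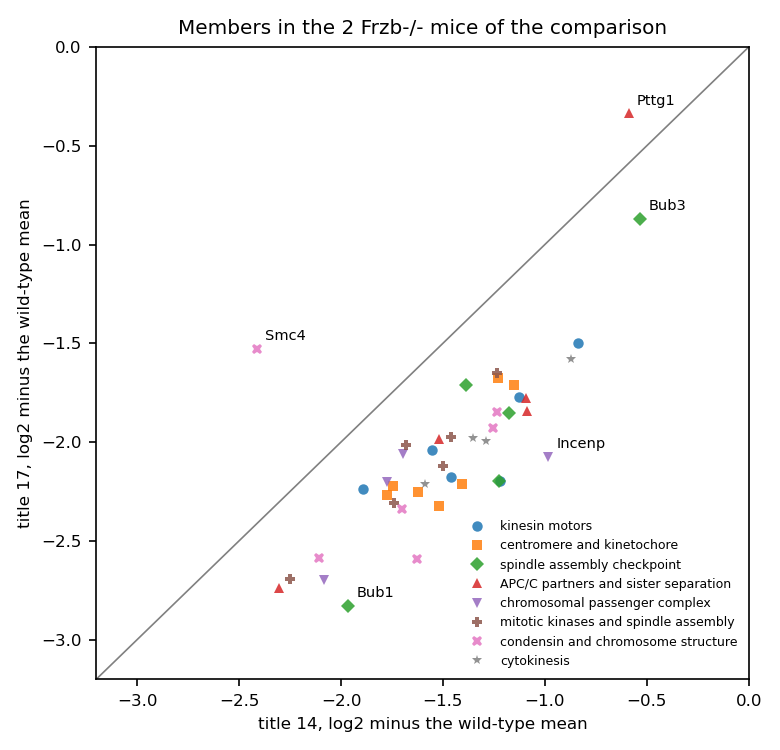
Each symbol is 1 of the 43 genes, placed by its log2 value minus the wild-type mean in title 14 (horizontal) and title 17 (vertical), with the line of equal values. All but Pttg1 and Smc4 lie under the line, with a median of -0.62 for title 17 minus title 14.

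The wild-type mice showed an order of their own. Mouse 9-1 was the highest of the 3 in 41 of the 43 genes, against 34.5% of all genes, and mouse 6-1 was the lowest in 30. The median deviation from the wild-type mean was 0.22 in mouse 9-1, -0.07 in mouse 8-1 and -0.15 in mouse 6-1. The wild-type SD had a median of 0.20 over the 43 genes, against 0.13 over all genes. The genes therefore moved together between mice of 1 genotype too, by far less than between the groups, where the median gap from the lowest wild-type mouse to the highest Frzb-/- mouse was 1.28.

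The mouse titled 6 resembled the wild-type mice in these genes. It lay above the wild-type mean in 41 of the 43, at a median of 0.11 log2 units. It was within the wild-type range in 30 genes, above it in 12 and below it in 1, Pttg1. The share above every wild-type mouse was close to that of all genes, 27.3%. Its differences ran from -0.25 to 0.40, with 95% confidence limits between -0.83 and 1.19 over the list. These limits come from a fit of all 6 arrays in 3 groups, where the spread was taken from the wild-type mice and titles 14 and 17. A single array has no spread of its own, so no calls for title 6 are given. A further 7 probe sets of the 43 genes, none the brightest of its gene, read more than 0.7 log2 units above the wild-type mean in title 6. They belong to Bub3, Cenpe, Cenpf, Kif11, Smc4 and, with 2 probe sets, Smc2. Pttg1 was the 1 gene in which title 6 stood nearer to titles 14 and 17. In the linear sum of the 43 genes title 6 reached 109% of the wild-type mean, while title 14 reached 38.7% and title 17 reached 29.3%, and the wild-type mice ranged from 92.6% to 113%.

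Other probe sets of the same genes mostly went the same way. The 43 genes had 93 probe sets, of which 90 had lower mean values in the Frzb-/- mice, 64 were called lower and 0 higher, against 5.09% of all probe sets called lower. In 26 genes every probe set was called. The other called genes had at least 1 probe set that was not called, namely Anln, Aurka, Bub1b, Cdca3, Cenpf, Hmmr, Kif11, Kif2c, Ncapd2, Nusap1, Smc2, Spc25, Tpx2 and Ttk. Of the 26 further probe sets that were not called, 21 had a wild-type mean under 7. Averaging all probe sets of a gene left 37 genes called, with Anln, Cdca3, Kif2c and Spc25 lost and Incenp gained. Affymetrix marks probe sets that can bind several transcripts by the suffixes _s_at and _x_at. The 3 uncalled genes, Bub3, Pttg1 and Incenp, all stood on such probe sets, as did 7 of the 40 called genes.

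The other genes of the mitotic programme fell as well, though less evenly. Of 66 listed genes of mitotic entry, cohesion, centromere assembly and the spindle, 63 were measured. Of these, 44 were called lower and 0 higher, against 6.02% and 3.03% of all genes, with a median of -1.59. Esco2, which acetylates cohesin, read 8.03 on average in the wild-type mice and showed the largest difference, -2.74 (limma adjusted p = 0.000878). Fbxo5, an inhibitor of the anaphase-promoting complex, differed by -2.27 and Depdc1a by -2.26. Of the genes not called, the brightest were Anapc5, Rad21 and Ncaph2. Anapc5, a scaffold subunit of the anaphase-promoting complex, differed by -0.02, the cohesin subunit Rad21 by -0.76 and the condensin II subunit Ncaph2 by -0.12, although 1 of the 4 probe sets of Ncaph2 was called lower.

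Most erythroid, neutrophil and megakaryocyte markers were also called lower in titles 14 and 17, unlike most macrophage and monocyte markers. Over all genes, 6.02% were called lower. All 8 measured erythroid markers of 12 listed were called lower, with a median difference of -2.74, and their summed level was 22.7% of the wild-type mean in title 14 and 18.4% in title 17, against 85.9% to 112% in the wild-type mice. The brightest were Slc4a1, the anion exchanger of red cells, at -2.80, and Tfrc, the transferrin receptor, at -1.40. Of 11 neutrophil and granulocyte precursor markers 10 were called lower, with a median of -2.28 and sums of 35.7% and 26.7%. S100a9 and S100a8, abundant neutrophil proteins, differed by -1.67 and -1.47. Of 11 pro-B and pre-B cell markers 5 were called lower (median -1.34, sums 47.1% and 34.8%), of 6 megakaryocyte markers 4 (median -1.75, sums 38.9% and 20.3%) and of 5 T and NK cell markers 1 (median -0.77). Of the brightest of these, the B lineage genes Blnk and Cd79b differed by -1.34 and -2.17. The platelet chemokines Ppbp and Pf4 differed by -2.81 and -1.41, and the cytotoxic cell genes Nkg7 and Gzma by -2.39 and -1.06. In the T and NK list, Cd3g and Cd8a lay at percentiles 10.3 and 5.38 of the wild-type arrays, where a fall could hardly show. The 8 macrophage and monocyte markers had a median of 0.13, with 2 called lower, and Csf1r and Ctss differed by 0.19 and -0.20. The sums of the erythroid, neutrophil, pro-B and megakaryocyte markers were lower in title 17 than in title 14, as the sum of the mitotic genes was. In title 6 these 4 sums lay between 94.5% and 118%.

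Most markers of the skeletal cells were not called. Over all genes, 6.02% were called lower and 3.03% higher. Of 11 cartilage markers 0 were called, with a median of -0.04 and sums of 88.5% and 103% of the wild-type mean, and Col2a1 and Comp, major proteins of cartilage matrix, differed by 0.03 and 0.24. Among 7 markers listed for the growth plate 0 were called, with a median of -0.10. Their sums were 133% in title 14, 152% in title 17 and 149% in title 6, against 88.3% to 118% in the wild-type mice. The brightest of them is Prg4, the joint surface lubricant, at 0.85, so the sums do not measure growth plate cells alone. Pth1r, the receptor of parathyroid hormone-related protein, differed by 0.17 and Col10a1 by 0.60. Mef2c, Fgfr3, Ucma and Ihh differed by -0.10, -0.21, -0.18 and -0.20. The 7 osteoblast and osteocyte markers had a median of -0.10 and 1 call, Sost, an osteocyte inhibitor of WNT signalling, at -2.57, while Col1a1 and Ibsp, proteins of bone matrix, differed by 0.27 and 0.16. Fibroblast, smooth muscle and endothelial markers had medians of 0.75, 1.29 and 0.69, with 3 of 7, 3 of 6 and 1 of 6 called higher. The brightest fibroblast genes Col3a1 and Dcn differed by 0.70 and 0.75, the mural cell genes Rgs5 and Acta2 by 0.83 and 1.24, and the endothelial genes Kdr and Emcn by 0.37 and 1.10. The sum of the smooth muscle and pericyte markers reached 211% and 212% of the wild-type mean. Log2 RMA values have no 0, so no marker could be read as absent. The part of these marker changes in the fall of the mitotic genes was not tested.

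**Figure D5:**
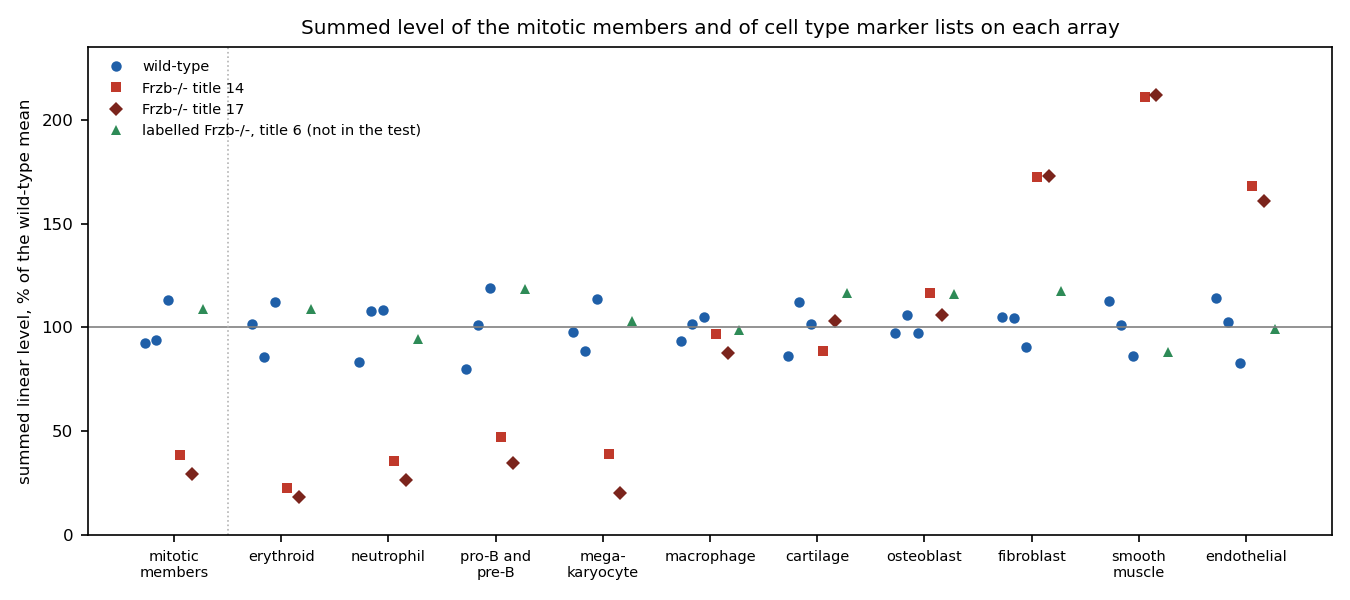
The summed linear level of each gene list is given for every array as a percentage of the mean of the 3 wild-type arrays, with 1 symbol an array. The mitotic genes stand at 38.7% and 29.3% in titles 14 and 17, beside 22.7% and 18.4% for the erythroid markers, 88.5% and 103% for the cartilage markers and 211% and 212% for the smooth muscle markers.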

How the data were processed

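Affymetrix Mouse Genome arrays were hybridised with RNA of 6 mice, 1 array per mouse. The values deposited are log2 RMA values of 30618 probe sets (affy 1.20.0 per the labels), and the methods describe dropping controls and probe sets with absent calls. Whether the table holds exactly the probe sets left by that step was not tested, since detection calls were not used here. The number of arrays limits the precision. Of these probe sets, 25090 carried a single gene in the annotation, 677 carried several and 4851 none. Differences were tested with the lmFit and eBayes functions of limma (version 3.58.1, run in R 4.3.3), two-sided and adjusted by Benjamini-Hochberg over all probe sets, with 3 wild-type arrays against the Frzb-/- arrays titled 14 and 17. The study compared the same numbers of mice by limma, and its published log2 differences match these titles. The code of the fit was tested on simulated data. There every probe set varied on its own, so that test does not cover genes that move together between mice. The labels name no batch. Levels as percentages were taken from 2 to the power of the log2 values.

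The genes and lists were chosen with earlier results of these data known, so none of them gives independent evidence of direction. Of the genes, 7 (Bub1, Bub1b, Plk1, Cdc20, Ttk, Mad2l1 and Espl1) also stand in a cell cycle table that the study drew from these same arrays. In each of the 8 role groups the values of every array are given for the 2 genes with the largest difference, the brightest gene and all genes not called. Beyond these, Frzb, the 3 largest called and 3 brightest uncalled other mitotic genes and the 2 brightest genes of each marker list are named. So are genes whose probe sets differ in their call, Sost, Cd3g, Cd8a and all measured markers listed for the growth plate. Alternatives covered the mice in the fit, normalization, moderation, array weights, a filter on dim probe sets, the probe set per gene and the threshold.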

Additional observations from a re-analysis of the deposited data

How the results depend on the processing

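With each mouse left out in turn, 9 to 41 of the 43 mitotic genes, 12 to 40 of the 63 other mitotic genes, 335 to 1506 probe sets lower and 97 to 570 probe sets higher were called, against 40, 44, 1558 and 717 with all 5 mice. The lowest counts came without title 17, which leaves a lone Frzb-/- mouse assumed to vary like the wild-type mice, and the median difference of the 43 genes stayed between -2.06 and -1.46. With all 3 labelled Frzb-/- mice, including the 1 genotyped again as heterozygous, limma called 0 genes of either list and 0 probe sets in either direction. In that fit 3534 probe sets had an unadjusted limma p under 0.05, the median was -1.15, and Frzb differed by -3.53 (limma adjusted p = 0.0488). Without moderation 0 were called in each of these counts and Frzb stood at -3.61 (adjusted p = 0.0595). A filter to the brighter probe sets left 28 other mitotic genes, 1004 probe sets lower and 415 higher called, with fewer tested. An adjusted p under 0.05 with no minimum fold gave 4532 lower and 3592 higher probe sets. Cyclic loess (39 mitotic genes called, Kif22 lost), median centring, trended and robust moderation, array weights and title 6 as a group of its own (40 each) and the mean over probe sets (37) kept the count within 1.5 times. No alternative turned the direction of any of the 43 genes. No paired analysis was possible because the groups share fewer than 2 animal numbers: the number 6 in wild-type mouse 6-1 and title 6, which is outside the comparison, is the only one, and the labels do not say that it pairs mice. With 2 mice against 3, the limma p values weigh each difference against the spread between single mice, moderated by sharing variance between probe sets. Litter and day of dissection are not given in the labels.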
